A study of Mus musculus with 10 samples.

Results

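The genes described here sit at the output side of the circadian clock: *Dbp*, *Tef*, *Hlf*, *Nfil3*, *Bhlhe40*, *Bhlhe41*, *Ciart*, *Usp2* and *Noct*. They were chosen by name, with earlier results of these data known, and are 9 of the 43629 genes in the count table. Each of the 9 had enough reads to be kept by the filter and was among the 14143 genes tested. No gene of the 9 differed between cachectic and non-cachectic livers past the threshold in the main test. Of the 9, 7 varied more between livers of a group than 90% of all tested genes, and 5 did so without the liver NCACS 15. Several core clock genes and reported target genes, given below, were above that mark too.

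RNA was sequenced from the livers of 10 male KL mice (Lkb1 flox/flox with a further Cre-dependent allele, backcrossed to FVB), a lung cancer model in which tumours are induced in adults by intranasal Ad5CMV-Cre, an adenovirus with Cre under a CMV promoter that does not restrict Cre to one cell type. The 5 CACS mice had cancer anorexia-cachexia syndrome, with weight changes of -33 to -29%, and the 5 NCACS mice, which carried the same alleles and received the same virus, did not, with weight changes of -14 to -3%. No tumour-free mice are among these samples, the groups were set by weight loss, and the hour of collection is not given in the sources used here. Each liver is 1 mouse and is named by its group and the number in its label, NCACS 11 to 15 and CACS 16 to 20.

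In the mammalian clock, CLOCK and BMAL1 bind E-boxes and drive the *Per* and *Cry* genes, whose proteins inhibit them in turn, and the same E-boxes drive a set of output genes. DBP, TEF and HLF are transcription factors of the PAR bZIP family that activate genes through D-boxes, and NFIL3 (also called E4BP4) binds the same sites and represses. In mouse liver these factors pass the daily rhythm on to genes of drug, haem and bile acid metabolism. BHLHE40 and BHLHE41 (DEC1 and DEC2) and CIART are repressors that compete with or inhibit CLOCK and BMAL1, USP2 is a deubiquitinase with a clock-driven transcript, and *Noct* encodes nocturnin, a rhythmic phosphatase of NADP(H) related to deadenylases.

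Total counts were 31945328 to 38306888 in NCACS and 31459179 to 40746178 in CACS livers. Levels are given as CPM, the reads of a gene relative to its library total after TMM scaling. Log2 fold changes are CACS relative to NCACS from edgeR's quasi-likelihood fit, shown ± the standard error (SE), and adjusted p-values are those of that fit over all genes tested unless another tool is named. The hepatocyte markers *Alb*, *Apoa1*, *Ttr*, *Cps1*, *Tat* and *Hnf4a* were abundant in every liver, with at least 17656 counts each, with sums of 62643 to 111931 CPM in the NCACS and 106273 to 129385 CPM in the CACS group, the lowest being NCACS 15. Of these 6, *Hnf4a* was higher in CACS livers (log2 fold change 0.50, adjusted p = 0.0435 from edgeR). Of 5 macrophage markers, with sums of 145 to 245 CPM in the NCACS and 85.4 to 170 CPM in the CACS group, *Cd5l* was lower (-0.90, adjusted p = 0.0374), and 0 of 18 tested genes passed in the other 6 lists, for endothelial, stellate, bile duct, lymphocyte, neutrophil and lung cells. Of all tested genes 3.80% passed, and the sums of the hepatocyte and macrophage lists overlapped between the groups. The part of these marker differences in the results below was not tested. In whole liver, fewer cells of a type and less RNA per cell cannot be told apart.

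Promoter windows of RefSeq (GRCm38.p6, 250 bases before to 50 after each start site) were found for 8 of the 9 genes, all but *Bhlhe40*, in 9 windows. They were searched on both strands for the E-box CACGTG, the D-box TTANGTAA, the ROR element TAGGTCA and the cAMP response element TGACGTCA. E-boxes lay in 4 of the 9 windows, those of *Ciart*, *Bhlhe41* and *Tef* (both windows), and in 7.15% of all 32851 windows. The D-box was in 0 of the 9 windows and in 2.32% of all. *Nfil3* had the ROR element (2.61% of all windows), which is bound by the ROR activators and the REV-ERB repressors, and *Hlf* the cAMP response element (1.79%). The stretches below hold these matches, with the motif in capitals, and each runs 5′ to 3′ along the strand of its gene. No match overlapped another, and a match is a run of letters and not a shown binding site.
Ciart, chr3:95882252-95882404, reverse strand, 3 E-boxes: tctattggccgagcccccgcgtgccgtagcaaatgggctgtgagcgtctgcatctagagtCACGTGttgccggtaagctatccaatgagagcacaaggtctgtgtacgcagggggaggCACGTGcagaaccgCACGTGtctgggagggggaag
Bhlhe41, chr6:145865559-145865633, reverse strand, 1 E-box: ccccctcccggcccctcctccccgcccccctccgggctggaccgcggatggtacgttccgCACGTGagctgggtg
Tef, the upstream start site, chr15:81802534-81802563, forward strand, 1 E-box: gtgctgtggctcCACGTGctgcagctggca
Tef, the downstream start site, chr15:81811264-81811293, forward strand, 1 E-box: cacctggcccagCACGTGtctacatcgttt
Hlf, chr11:90390908-90390937, reverse strand, the cAMP response element: ggtgcgggcccTGACGTCActcttgtcagg
Nfil3, chr13:52981034-52981063, reverse strand, the ROR element read on the opposite strand: ggcgctcggaacTGACCTActaacacacat

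One liver stood apart from the rest. NCACS 15 had the lowest level of the 10 livers for 7 of the 9 genes (*Dbp*, *Tef*, *Bhlhe40*, *Bhlhe41*, *Ciart*, *Usp2* and *Noct*) and the highest of *Nfil3*, whereas it was lowest for 14.8% and highest for 14.6% of all tested genes. Its total count, 33020012, lay within the range of the others. The fold changes of the 9 genes are therefore given with this liver and without it.

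**Figure D1:**
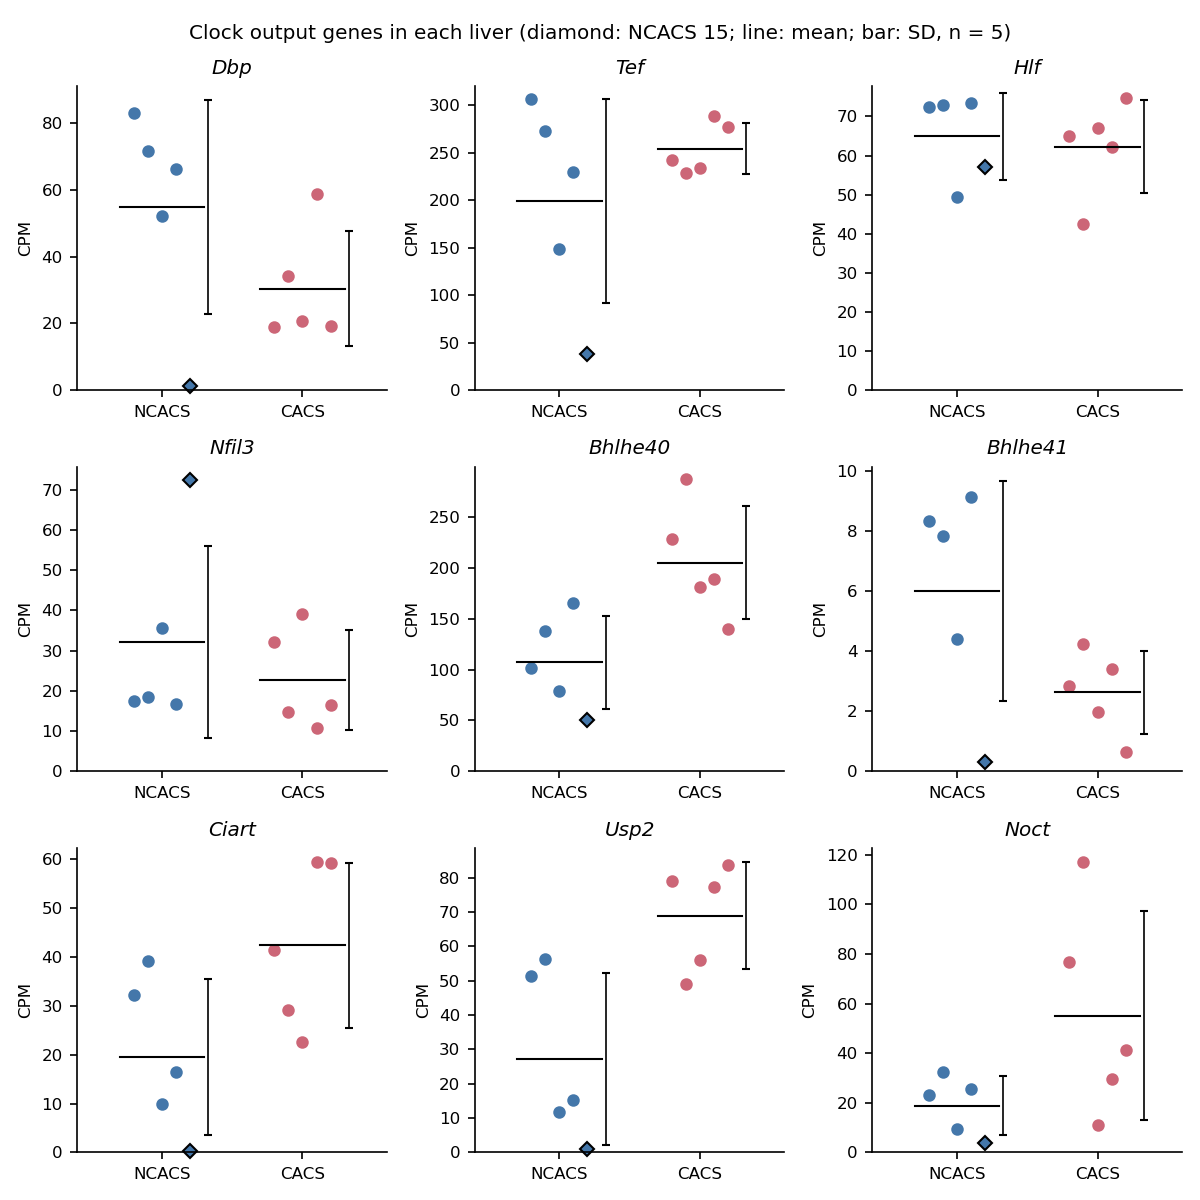
Level of each clock output gene in each liver, in CPM after TMM scaling on a linear axis from 0, with NCACS livers in blue and CACS livers in red. The horizontal line is the group mean, the bar the SD over 5 mice, and the diamond NCACS 15, which is at the bottom for 7 genes and at the top for *Nfil3*.

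*Dbp* (ENSMUSG00000059824, chr7:45705088-45710203 of GRCm38, forward strand) was higher on average in NCACS than in CACS livers, with 1 NCACS liver far below the rest. Its levels in NCACS 11 to 15 were 82.9, 71.6, 52.1, 66.0 and 1.27 CPM, and in CACS 16 to 20 they were 18.8, 34.3, 20.7, 58.8 and 19.2 CPM. Thus 4 NCACS livers were above 4 of the CACS livers, CACS 19 lay among the NCACS values, and NCACS 15 was below all others with 41 counts. Means were 54.8 ± 31.9 and 30.3 ± 17.1 CPM (SD, n = 5 each), and the log2 fold change was -0.85 ± 0.691 (SE, edgeR adjusted p = 0.508). With NCACS 15 left out it was -1.16 ± 0.327 (SE, edgeR adjusted p = 0.0884), from a NCACS mean of 68.1 ± 12.8 CPM (SD, n = 4). The difference of mean log2 CPM, which weighs a liver near 0 more than the ratio of mean levels in edgeR does, was -0.17. The last 737 bases of *Dbp* overlap *Sphk2* on the opposite strand, a gene at 35.2 to 78.8 CPM over the 10 livers and at 72.5 CPM in NCACS 15, and the strand setting of the counting is not given in the sources used here.

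*Tef* (ENSMUSG00000022389, chr15:81802421-81826863, forward strand), the next PAR bZIP activator, was the most even of the variable genes among cachectic mice. It measured 306, 273, 149, 230 and 38.5 CPM in NCACS 11 to 15 and 242, 229, 234, 289 and 277 CPM in CACS 16 to 20. The CACS livers lay within a 1.26-fold range and the NCACS livers within a 7.95-fold range, which was 2.05-fold without NCACS 15. The log2 fold change was 0.35 ± 0.397 (SE, edgeR adjusted p = 0.655), and 0.090 ± 0.185 without NCACS 15 (SE, edgeR adjusted p = 0.836), while the difference of mean log2 CPM was 0.65.

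*Hlf* (ENSMUSG00000003949, chr11:90336536-90390895, reverse strand) completes the family and varied least. Its levels were 72.4, 72.8, 49.3, 73.3 and 57.1 CPM in NCACS 11 to 15 and 64.9, 42.6, 67.1, 62.1 and 74.8 CPM in CACS 16 to 20. NCACS 15 lay between other livers here, and the groups overlapped over almost their whole range. The log2 fold change, -0.061 ± 0.158 (SE, edgeR adjusted p = 0.864), was smaller than its error, and it was -0.10 without NCACS 15. Of the 3 activators, then, *Dbp* and *Tef* were far below the other livers in NCACS 15 and *Hlf* was not.

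*Nfil3* (ENSMUSG00000056749, chr13:52967209-52981073, reverse strand), the repressor of the same D-box sites, was instead highest in that mouse. NCACS 11 to 15 had 17.5, 18.5, 35.6, 16.8 and 72.4 CPM, and CACS 16 to 20 had 32.2, 14.8, 39.2, 10.7 and 16.6 CPM. NCACS 15 was the highest liver, and CACS 18, NCACS 13 and CACS 16 followed. The log2 fold change was -0.50 ± 0.467 (SE, edgeR adjusted p = 0.570), and with that liver left out it was 0.043 ± 0.383 (SE, edgeR adjusted p = 0.968).

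Activator and repressor can be set against each other within a liver as the log2 ratio of *Dbp* to *Nfil3*, each scaled by exon length. It was 1.68, 1.39, -0.01, 1.41 and -6.40 in NCACS 11 to 15 and -1.34, 0.64, -1.48, 1.89 and -0.35 in CACS 16 to 20. *Dbp* was thus above *Nfil3* per length in 3 NCACS and 2 CACS livers, near equal to it in NCACS 13, and 0.0118 of it in NCACS 15. The groups overlapped with and without NCACS 15.

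*Bhlhe40* (ENSMUSG00000030103, chr6:108660629-108666925, forward strand) came nearest to the threshold of the 9 genes and was higher on average in CACS livers. Its levels were 102, 138, 79.4, 165 and 50.3 CPM in NCACS 11 to 15 and 228, 287, 181, 189 and 140 CPM in CACS 16 to 20. The highest NCACS liver, NCACS 14, exceeded only CACS 20, so the groups overlapped by 1 liver on each side. Mean levels of 107 ± 45.6 and 205 ± 55.4 CPM (SD, n = 5 each) gave a log2 fold change of 0.94 ± 0.292 (SE, edgeR adjusted p = 0.0928). It did not pass with edgeR, and passed with DESeq2 (0.93, adjusted p = 0.0191), in which 4.85% of all genes passed as higher. Without NCACS 15 the edgeR value was 0.76 (standard error 0.244, adjusted p = 0.120).

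*Bhlhe41* (ENSMUSG00000030256, chr6:145858243-145865558, reverse strand), the paralogue of *Bhlhe40*, was the least abundant member and had the opposite sign. NCACS 11 to 15 measured 8.34, 7.82, 4.40, 9.12 and 0.309 CPM, against 2.85, 4.25, 1.99, 3.41 and 0.630 CPM in CACS 16 to 20, with 10 to 314 counts per liver. Apart from NCACS 15, every NCACS liver was above every CACS liver, the single such case among the 9 genes, where 9.03% of all tested genes did not overlap without that liver. The log2 fold change was -1.19 ± 0.651 (SE, edgeR adjusted p = 0.314) and -1.49 ± 0.421 without NCACS 15 (SE, edgeR adjusted p = 0.0897). Per length, the log2 ratio of *Bhlhe40* to *Bhlhe41* in a liver was 4.12 to 4.69 in NCACS 11 to 14, 6.30 to 8.31 in CACS livers and 7.86 in NCACS 15.

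*Ciart* (ENSMUSG00000038550, chr3:95878503-95882251, reverse strand) and *Usp2* (ENSMUSG00000032010, chr9:44067021-44095627, forward strand) had closely similar profiles. *Ciart* had 32.2, 39.1, 9.86, 16.4 and 0.309 CPM in NCACS 11 to 15 and 41.4, 29.2, 22.5, 59.3 and 59.2 CPM in CACS 16 to 20. *Usp2* had 51.3, 56.4, 11.9, 15.2 and 0.926 CPM in the same NCACS livers and 79.1, 48.9, 55.9, 77.2 and 83.6 CPM in the CACS livers. For both genes NCACS 13, 14 and 15 were the 3 lowest of the 10 livers, and the other NCACS livers lay among the CACS values. After subtraction of each gene's mean, the 2 profiles differed by 0.44 log2 units (root mean square over the 10 livers), where *Usp2* itself deviated from its mean by 1.89, and of all tested genes each was nearest to the other.

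*Usp2* averaged 27.2 ± 25.0 CPM in the NCACS and 69.0 ± 15.5 CPM in the CACS group (SD, n = 5 each), which gave a log2 fold change of 1.34 ± 0.693 (SE, edgeR adjusted p = 0.287). For *Ciart* the averages were 19.6 ± 15.9 and 42.3 ± 16.9 CPM (SD, n = 5 each), with a fold change on the log2 scale of 1.11 ± 0.717 (SE, edgeR adjusted p = 0.395). Without NCACS 15 these were 1.04 and 0.80 (adjusted p = 0.214 and 0.305 from edgeR's test). Neither difference passed the threshold. On mean log2 CPM the differences were 2.28 for *Usp2* and 2.06 for *Ciart* (two-sided exact permutation over all assignments of livers to groups, unadjusted p = 0.0397 and 0.0635). Both include NCACS 15, which was at -4.96 and -5.72 log2 units from the gene's mean over the 10 livers. The same permutation gave unadjusted p = 0.0159 for *Bhlhe40*, 0.0952 for *Noct*, 0.325 for *Tef*, 0.421 for *Bhlhe41*, 0.437 for *Nfil3*, 0.738 for *Hlf* and 0.960 for *Dbp*. *Ciart* lies whole within the antisense gene *C920021L13Rik*, which had at most 1.43 CPM.

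*Noct* (ENSMUSG00000023087, chr3:51224447-51251644, forward strand) spread widely in both groups. NCACS 11 to 15 had 23.2, 32.6, 9.44, 25.4 and 3.86 CPM, and CACS 16 to 20 had 76.6, 117, 11.2, 29.6 and 41.1 CPM. CACS 16 and 17 were far above all other livers, while CACS 18 was below 3 of the NCACS livers, a 10.5-fold range within the cachectic group. The log2 fold change was 1.54 ± 0.627 (SE, edgeR adjusted p = 0.179), 1.28 without NCACS 15 and 1.07 without CACS 17. The transcript *Gm38357* lies inside *Noct* on the same strand with at most 1.29 CPM.

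**Figure D2:**
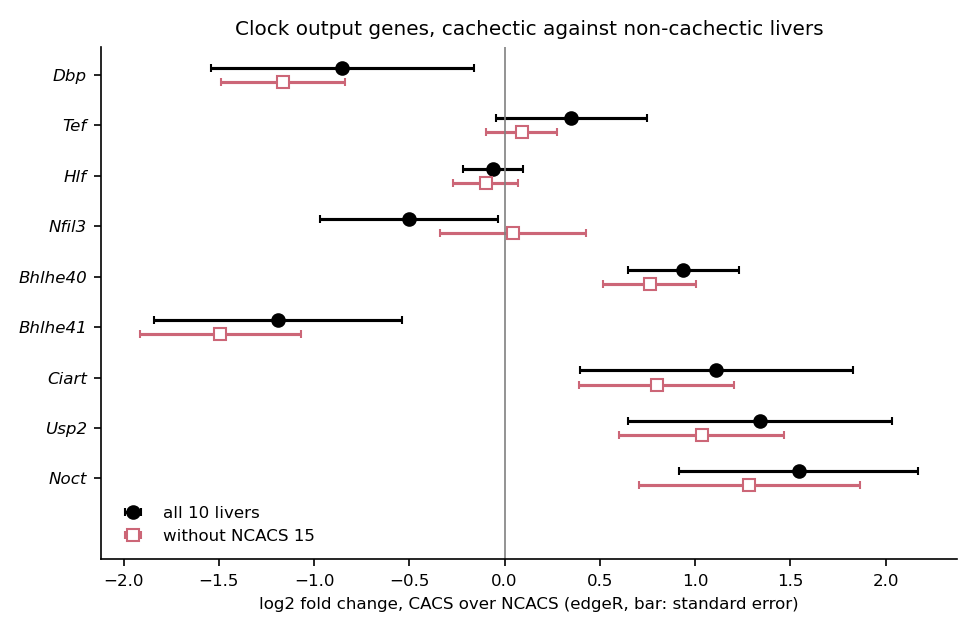
Log2 fold change of each clock output gene in CACS over NCACS livers from edgeR, with bars of 1 standard error, for all 10 livers (filled circles) and without NCACS 15 (open squares). *Nfil3* moves from -0.50 to 0.04 between the fits, and *Bhlhe40*, *Ciart*, *Usp2* and *Noct* stay positive in both.

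Counted together, 5 of the 9 genes had a positive and 4 a negative log2 fold change, with a median of 0.35 beside -0.01 over all tested genes. With edgeR, 0 of the 9 passed the adjusted threshold, where 3.80% of all tested genes did. Before adjustment, 2 of the 9 had p-values under 0.05 (*Bhlhe40* and *Noct*, both higher) against 21.6% of all genes, 11.3% higher and 10.3% lower. Without NCACS 15, again 0 passed (1.99% of all genes). Before adjustment 5 then had p-values under 0.05 (20.2% of all genes), with *Bhlhe40*, *Usp2* and *Noct* higher (10.4%) and *Dbp* and *Bhlhe41* lower (9.78%). In DESeq2 1 of the 9 passed and was higher (4.85% of all genes), and in limma-voom 0. The groups did not overlap for 0 of the 9, beside 7.07% of all genes.

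The genes also differed in their spread between livers of a group. The pooled within-group SD of log2 CPM was 1.98 for *Ciart*, 1.87 for *Dbp*, 1.69 for *Usp2*, 1.57 for *Bhlhe41*, 1.29 for *Noct*, 0.87 for *Tef* and 0.85 for *Nfil3*. All 7 were above the 90th percentile of all tested genes (0.65, with a median of 0.27), and *Ciart* was at percentile 99.8. *Bhlhe40* (0.55) was at percentile 84.6 and *Hlf* (0.29) at percentile 54.2. Much of this spread lay in 1 liver: without NCACS 15 the pooled SD was 0.57 for *Dbp* (percentile 86.4) and 0.32 for *Tef* (percentile 62.0), both under the 90th percentile of 0.64 over all genes without that liver. It was 0.76 for *Ciart*, 0.80 for *Usp2*, 0.85 for *Bhlhe41*, 1.11 for *Noct* and 0.68 for *Nfil3*, so that these 5 genes were still above it, at percentiles 91.5 to 98.2. The SD was larger in NCACS than in CACS livers for 7 of the 9 genes (53.7% of all tested genes) and for 4 of the 9 without NCACS 15 (46.8%). Within the CACS group alone, *Noct*, *Bhlhe41*, *Nfil3* and *Dbp* remained above the 90th percentile of all genes' CACS values, whereas *Tef* was at percentile 23.9. A high pooled SD over all 10 livers was not particular to these genes. Of the core clock genes below, *Npas2* (percentile 99.7), *Arntl* (99.5) and *Per3* (99.4) had it, and *Clock* (67.1) and *Cry2* (63.4) did not. Of the reported PAR bZIP or NFIL3 targets, *Fgf21* (99.6), *Cyp2b10* (98.2) and *Alas1* (97.8) had it, and *Nr1i3* (80.0) and *Ppara* (72.1) did not.

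Within the NCACS group the same 2 livers lay at an end of the range for each of the 9 genes. The mice with the largest weight losses among NCACS, NCACS 13 (-11%) and NCACS 15 (-14%), had the 2 lowest levels of the group for 8 of the 9 genes and the 2 highest for *Nfil3*. Over all tested genes, these mice were the 2 lowest for 12.5%, the 2 highest for 12.6% and either for 25.1%. The remaining livers of the group had no common order. For *Usp2* and *Ciart* the next lowest was NCACS 14 (15.2 and 16.4 CPM), which had the smallest loss (-3%). For *Bhlhe41* NCACS 14 was the highest, at 9.12 CPM. The place of NCACS 13 and 15 was noticed after the values were seen, it rests on 5 mice, and no test was made of it. Between the groups, *Usp2*, *Ciart*, *Noct* and *Bhlhe40*, which were low in NCACS 13 and 15, had positive log2 fold changes in the mice that lost more weight, as had *Tef*, whereas *Dbp*, *Bhlhe41* and *Hlf*, low in the same livers, had negative ones.

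**Figure D3:**
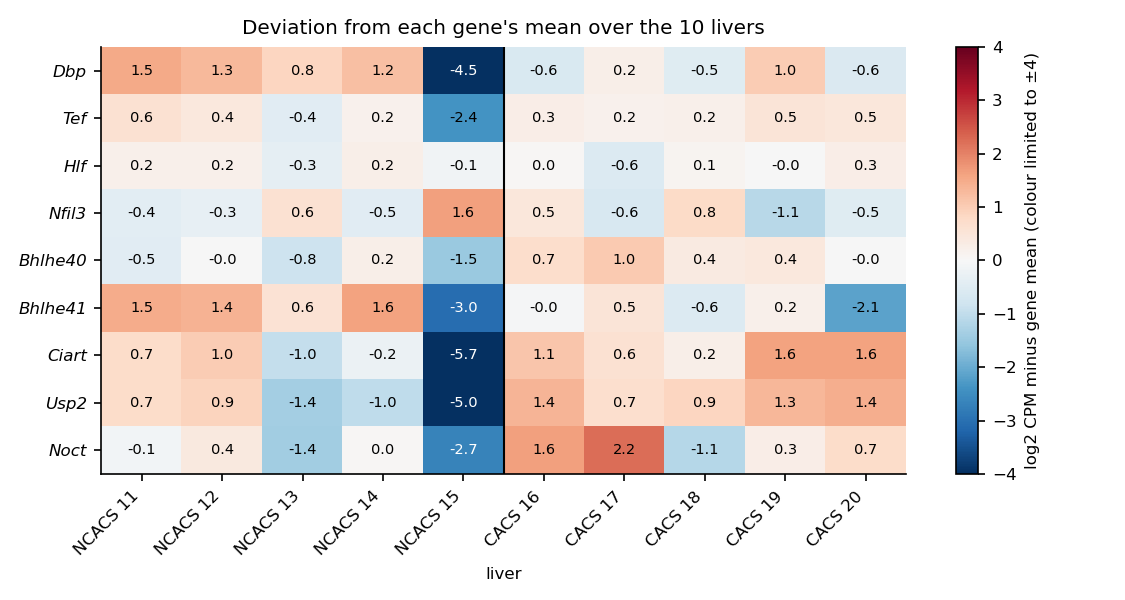
Log2 CPM of each clock output gene in each liver minus the gene's mean over the 10 livers, in log2 units printed in each cell, with a vertical line between groups. The column of NCACS 15 is lowest for 7 genes and highest for *Nfil3*, and NCACS 13 has the same signs as NCACS 15 for *Tef*, *Hlf*, *Nfil3*, *Bhlhe40*, *Ciart*, *Usp2* and *Noct*.

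Since the mean levels of *Usp2* and *Ciart* were higher and that of *Dbp* lower in CACS livers, their ratio to *Dbp* within each liver was examined, a choice made after the values were seen. Per exon length, the log2 ratio of *Usp2* to *Dbp* was -1.38, -1.03, -2.81, -2.81 and -1.14 in NCACS 11 to 15 and 1.39, -0.17, 0.75, -0.29 and 1.43 in CACS 16 to 20. For *Ciart* over *Dbp* it was -0.96, -0.47, -1.996, -1.61 and -1.63 in the NCACS livers and 1.54, 0.17, 0.53, 0.42 and 2.03 in the CACS livers. Every CACS liver was above every NCACS liver for both ratios, and NCACS 15 lay within the range of its own group. Of 14142 other tested genes, these 2 (0.0141%) had a ratio to *Dbp* that was higher in every CACS than in every NCACS liver, and 6 (0.0424%) one that was lower. With *Dbp* so low in NCACS 15, 99.7% of genes had their highest ratio there, and without that liver the share that was higher was 25.7%.

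**Figure D4:**
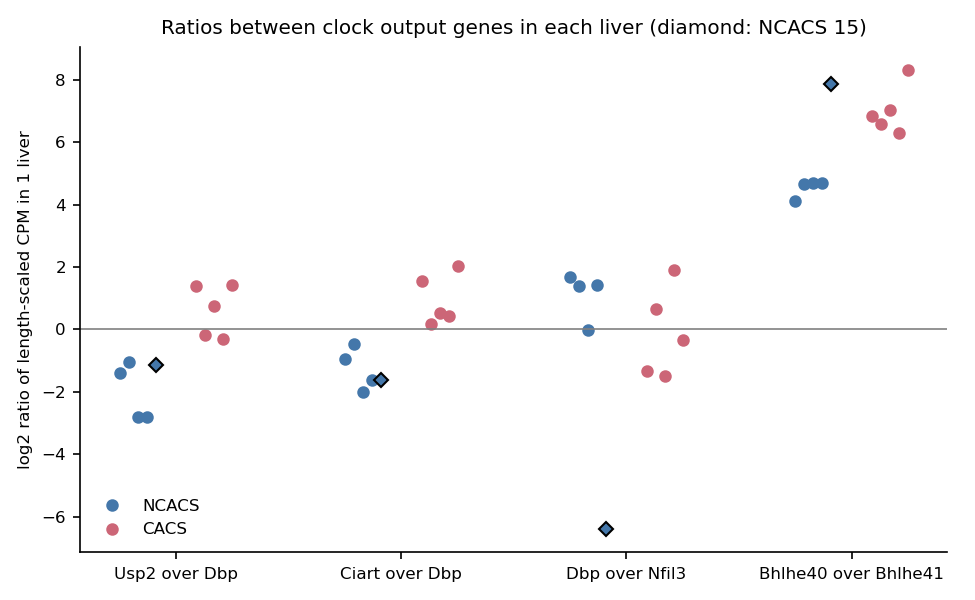
Log2 ratio of 2 clock output genes in the same liver, each as CPM per exon length, with NCACS livers in blue, CACS livers in red and NCACS 15 as a diamond. The groups are apart for *Usp2* over *Dbp* and *Ciart* over *Dbp*, while NCACS 15 lies at -6.40 for *Dbp* over *Nfil3* and at 7.86, among the CACS livers, for *Bhlhe40* over *Bhlhe41*.

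Levels were compared between genes as CPM per kilobase of exon. In NCACS livers the order ran from *Tef* (25.3 ± 13.7) through *Bhlhe40* (22.7 ± 9.69), *Dbp* (18.3 ± 10.7), *Nfil3* (15.9 ± 11.8), *Hlf* (9.72 ± 1.66), *Ciart* (8.65 ± 7.05), *Usp2* (5.64 ± 5.19) and *Noct* (1.78 ± 1.12) to *Bhlhe41* (0.892 ± 0.544; SD, n = 5 each), and 0 of the 8 neighbouring pairs differed by more than the larger of their SDs. In CACS livers *Bhlhe40* (43.5 ± 11.8) was at the top, followed by *Tef* (32.3 ± 3.41), *Ciart* (18.7 ± 7.46), *Usp2* (14.3 ± 3.21), *Nfil3* (11.2 ± 6.07), *Dbp* (10.1 ± 5.73), *Hlf* (9.32 ± 1.79), *Noct* (5.18 ± 3.96) and *Bhlhe41* (0.391 ± 0.206; SD, n = 5 each). Here 3 of 8 neighbouring pairs differed by more than the larger SD, *Tef* from *Ciart*, *Hlf* from *Noct* and *Noct* from *Bhlhe41*. *Dbp* was thus number 3 in the non-cachectic and number 6 in the cachectic order.

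The genes closest to each member in profile included other clock genes. The profile nearest to *Dbp* was that of *Per3*, a period gene (root mean square difference of 0.73 log2 units over the 10 livers, with *Dbp* deviating by 1.67), followed by *Bhlhe41* (0.76). *Per1* was nearest to *Noct* (0.53, with *Noct* deviating by 1.37). The receptor ligand gene *Efna1* was nearest to *Nfil3* (0.25 against 0.79), *Slc20a1*, a phosphate transporter, to *Tef* (0.33 against 0.84), *Tob2* to *Bhlhe40* (0.26 against 0.71) and *Lrig3* to *Hlf* (0.13 against 0.26). These values are a description over 10 livers, NCACS 15 included. *Dbp* and *Per3* were both lowest in that liver, at 1.27 and 2.50 CPM. Without it their log2 fold changes were -1.16 and -0.20.

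The clock loop upstream was read from a list of 17 core genes, of which 16 were tested, *Rorb* having at most 1 count per liver. With edgeR, 0 of 16 passed, 8 had positive and 8 negative log2 fold changes, and the median was 0.01. NCACS 15 stood apart here too, with the highest level of the 10 livers for *Clock*, *Arntl* and *Npas2* among others and the lowest for 5 of the 16 genes (*Per1*, *Per2*, *Per3*, *Cry2* and *Csnk1e*). *Arntl*, which encodes BMAL1, had 33.8 CPM in NCACS 15 and at most 8.13 CPM in any other liver, and its log2 fold change was -1.13 with and 0.32 without that liver. *Per3* had 2.50 CPM in NCACS 15 and at least 36.5 CPM elsewhere. These genes of the loop were named after their values were seen. The 3 with the largest log2 fold changes were *Npas2*, *Nr1d1* and *Per1*. *Npas2*, a paralogue of *Clock*, had a log2 fold change of -3.22 ± 1.11 (SE, edgeR adjusted p = 0.123) and of -1.13 without NCACS 15, which had 7.81 CPM while no other liver exceeded 0.873 CPM. *Nr1d1*, which encodes the repressor REV-ERBα, ranged from 38.0 to 200.5 CPM in NCACS and from 14.3 to 72.3 CPM in CACS livers (log2 fold change -1.65, standard error 0.514, adjusted p = 0.0930 from edgeR's test, and 0.0434 in DESeq2). The 38.0 CPM was that of NCACS 15, and the other NCACS livers had at least 118 CPM. Without NCACS 15 the groups did not overlap, as for 9.03% of all tested genes. The log2 fold change of *Nr1d1* was then -1.88 ± 0.460 (SE, edgeR adjusted p = 0.0607). *Per1* ranged from 5.84 to 66.8 CPM in NCACS and from 40.6 to 131 CPM in CACS livers (1.23, standard error 0.497, adjusted p = 0.177 from edgeR's test, and 0.95 without NCACS 15).

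Downstream, 9 liver genes reported as targets of the PAR bZIP factors or NFIL3 were listed, and 0 of 9 passed with edgeR. Their median log2 fold change was 0.13, with 5 positive and 4 negative, and with NCACS 15 left out it was -0.04. The largest values were those of *Fgf21*, a fasting hormone gene (2.09, adjusted p = 0.202), *Cyp2b10*, a drug-metabolizing cytochrome (-1.69, adjusted p = 0.124), and *Alas1*, the rate-limiting enzyme of haem synthesis (1.33, adjusted p = 0.172, all from edgeR's test). *Fgf21* had 12.4 CPM in CACS 18 against at most 2.12 CPM in any other liver, and without CACS 18 its log2 fold change was 0.50. *Alas1* ranged from 66.8 CPM in NCACS 15 to 668 CPM in NCACS and from 606 to 1756 CPM in CACS livers. Without NCACS 15 the log2 fold changes of *Fgf21*, *Cyp2b10* and *Alas1* were 2.08, -1.69 and 1.07 (adjusted p = 0.283, 0.180 and 0.195 from edgeR's test).

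Of 12 other genes with a daily rhythm in mouse liver, 2 passed with edgeR and both were higher in CACS livers, where 3.80% of all genes passed in either direction. *Rgs16*, a regulator of G protein signalling, ranged from 5.53 to 36.7 CPM in NCACS and from 36.3 to 108 CPM in CACS livers (log2 fold change 1.97, standard error 0.426, adjusted p = 0.0323 from edgeR's test). *Nampt*, an enzyme of NAD synthesis, ranged from 37.7 to 66.8 CPM in NCACS and from 48.2 to 142 CPM in CACS livers (1.15, standard error 0.265, adjusted p = 0.0375 from edgeR's test). Without NCACS 15 the log2 fold changes were 1.87 and 1.07, and neither passed (adjusted p = 0.0636 and 0.0748 from edgeR's test). Of the 10 fits that each left out 1 mouse, *Rgs16* passed in 3 and *Nampt* in 1, and the highest adjusted p-values were 0.0665 and 0.0799. *Elovl3*, a fatty acid elongase gene chosen here after its values were seen, ranged from 57.8 to 321 CPM in the NCACS group. The highest was NCACS 15, and no other NCACS liver exceeded 102 CPM. CACS livers ranged from 2.83 to 56.5 CPM, so the groups did not overlap, as for 7.07% of all tested genes. The log2 fold change was -2.67 ± 0.706 (SE, edgeR adjusted p = 0.0580, and 0.00832 in DESeq2). Without NCACS 15 it was -1.99 ± 0.617 (SE, edgeR adjusted p = 0.111).

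**Figure D5:**
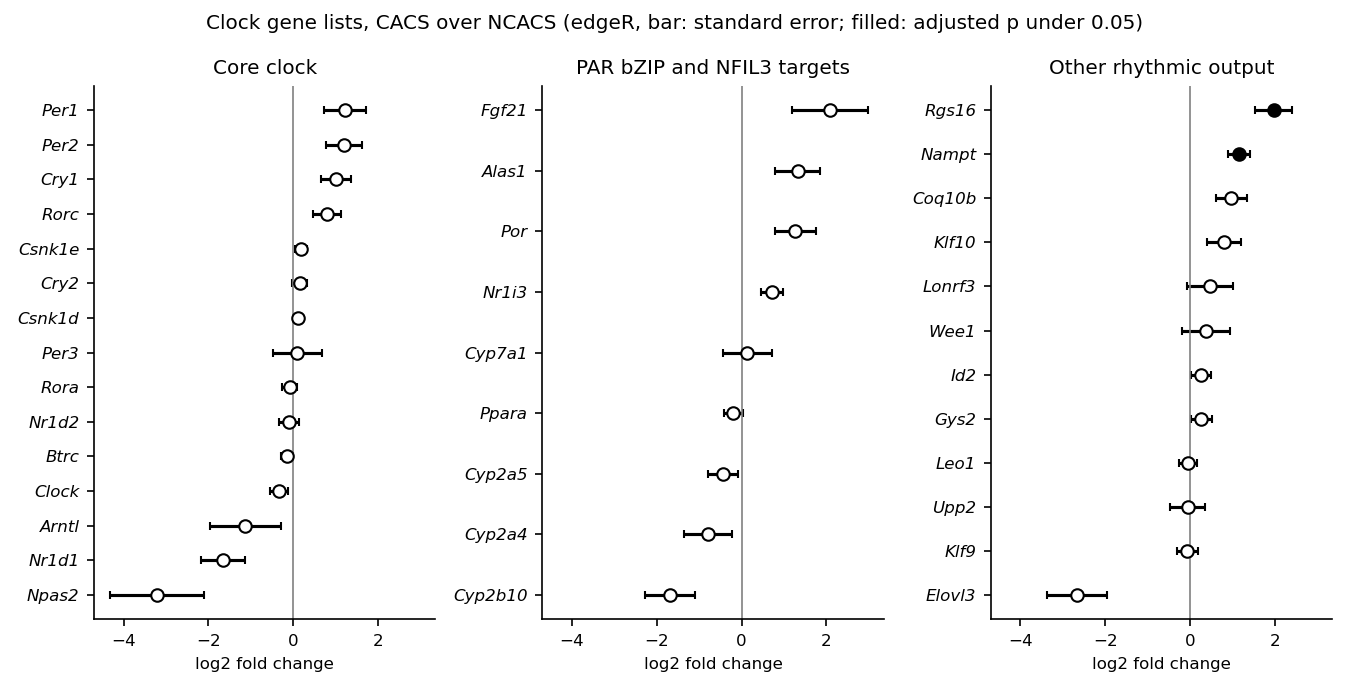
Log2 fold change in CACS over NCACS livers from edgeR, with bars of 1 standard error, for tested genes of the core clock (15 of the 16 shown), PAR bZIP and NFIL3 target and other rhythmic output lists. Filled points, *Rgs16* and *Nampt*, have an adjusted p-value under 0.05.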

How the data were processed

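Liver RNA of male KL mice, 5 NCACS and 5 CACS, was measured by RNA-seq of stranded poly(A) libraries with single-end reads. The authors aligned reads to GRCm38 with STAR 2.4.1d in 2-pass mode and counted them per gene with HTSeq 0.6.1, as the methods and the submitters' processing notes state, and deposited raw counts, 1 column per liver. The annotation release and strand setting are not given in the sources used here. Symbols, positions and exon lengths came from GENCODE M21 (42548 of 43629 identifiers matched), and groups, mouse numbers and weight changes from the labels. One allele that all mice carried and the values of 1 core clock gene are not reported here.

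Counts were filtered with filterByExpr, TMM-normalized and tested in edgeR 4.0.16 (R 4.3.3) with the quasi-likelihood test on group alone, all genes in 1 fit, with Benjamini-Hochberg adjustment and a threshold of 0.05. Standard errors were the log2 fold change over the square root of F. Log2 CPM used a prior count of 2. Alternatives were DESeq2 1.42.0, limma-voom 3.58.1, RLE and upper-quartile factors, raw totals, other filters and thresholds, a robust fit, an exact permutation test whose smallest two-sided p-value is 0.00794, and each mouse left out. On simulated counts with 200 genes changed 4-fold, edgeR recovered 193 with 6 false calls among 13940 genes. The changed genes were drawn at random, and no liver was set apart in the simulation. Such a recovery does not give the power for the 9 members, 7 of which were above the 90th percentile of spread between livers.

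The members and gene lists were chosen with earlier results of these data known. Named were the 9 members, the genes nearest to them in profile, and list genes past the threshold or, where there were none, the 3 with the largest change. Others, such as those in the ratios, were chosen after their values were seen. P-values set the difference between the groups against the variation between these mice.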

Additional observations from a re-analysis of the deposited data

Results flagged for a closer look

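Each group of 5 livers was examined for a liver far from the others, by the gap to its nearest neighbour over the group's range of log2 CPM, for the 9 clock output genes and the 8 list genes named. Of 34 combinations of a gene and a group, 3 were past Dixon's 95% critical value of 0.71, and chance gives about 1 in 20. *Dbp* was far below the other NCACS livers in NCACS 15 (gap over range 0.888), and *Bhlhe41* likewise (0.776). *Nampt* was far below the other CACS livers in CACS 17 (0.803), at 48.2 CPM.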

How the results depend on the processing

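No paired analysis was possible because no mouse number occurs in both groups. Across the tests, normalizations, filters and the robust fit, 78 of 81 values of the 9 genes kept their direction and their side of the threshold. The other 3 passed 0.05: *Bhlhe40* in DESeq2 (log2 fold change 0.93), and in the exact permutation of mean log2 CPM, without adjustment, *Bhlhe40* (1.01) and *Usp2* (2.28). DESeq2 so gave 1 clock output gene higher, and 1 core clock gene higher (*Cry1*) and 1 lower (*Nr1d1*), each against 0 in edgeR. Of the other rhythmic genes, 1 was lower (*Elovl3*) in DESeq2, in limma-voom and without a filter against 0, and 1 was higher in limma-voom and 0 at 0.01 against 2. All genes past the threshold numbered 267 higher and 271 lower, 672 and 714 in DESeq2, 14 and 20 at 0.01, 77 and 102 with the size of the log2 fold change at 1 or more, and 173 higher without a filter. On mean log2 CPM the fold changes of *Dbp* (-0.17), *Tef* (0.65), *Ciart* (2.06) and *Usp2* (2.28) moved by over 1.5 times. The cause was not tested.

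Leaving out 1 mouse at a time, the fold change on the log2 scale ranged from -1.24 to -0.65 for *Dbp*, 0.090 to 0.56 for *Tef*, -0.15 to 0.053 for *Hlf* (positive without CACS 17), -0.79 to 0.043 for *Nfil3* (positive without NCACS 15), 0.76 to 1.15 for *Bhlhe40*, -1.49 to -0.94 for *Bhlhe41*, 0.80 to 1.53 for *Ciart*, 1.04 to 1.80 for *Usp2* and 1.07 to 1.83 for *Noct*. In these fits 0 clock output, core clock and target genes passed, other rhythmic genes numbered 0 to 2 higher and 0 to 1 lower, and all genes 79 to 246 higher and 96 to 273 lower. The 7 genes with a wider spread in NCACS livers became 4 to 9. The 7 genes above the 90th percentile of spread became 5 without NCACS 15, a comparison chosen after seeing the data. Counting error limits *Bhlhe41* and *Ciart*, with 10 counts in NCACS 15, more than the other members.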
